A study of Rattus norvegicus with 4 samples.

Results

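The genes described are 9 chemokines, Ccl2, Ccl3, Ccl4, Ccl5, Ccl7, Ccl20, Cxcl1, Cxcl2 and Cxcl10, out of 16581 rat genes with a symbol on the array. They were chosen by symbol: a probe belongs to one of them when its RefSeq accession carries that symbol in the rat RefSeq gene table. Each of the 9 had a probe, and together they had 10 probes printed as 31 spots on every array. The RNA came from NR8383 cells, an established macrophage line of the rat started from lung lavage and grown partly attached and partly floating. All cells carried the same treatment, 9.25 µg/mL of the nickel-zinc ferrite NiZnFe2O4 for 4 h, after 20 passages, and the 4 biological replicates were hybridised to 4 one-colour arrays. No array of cells left untreated was analysed here. The values therefore describe exposed cells, with no test between groups, and do not show what the exposure changed.

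Chemokines are small secreted proteins that steer leukocytes along their concentration gradient by binding receptors coupled to G proteins. They are named for the spacing of their first cysteines: adjacent in CC chemokines, separated by another residue in CXC chemokines. Macrophages in the lung are a known source of both kinds, and many chemokine genes are transcribed quickly after activation of NF-kB, AP-1 or interferon-regulated factors, while their mRNAs are short-lived.

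Each array held 58717 spots for transcripts, of which 21812 to 24981 carried the scanner software's flag for a signal well above background. A probe is called detected on an array below where at least a share of 0.5 of its spots carried that flag, and a gene where a probe of it was detected. The 75th percentile of the probe intensities was 41.6, 32.7, 23.5 and 24.8 units on replicates 1 to 4, so replicates 3 and 4 were the dimmer arrays. Levels below are log2 intensity minus the log2 of that percentile on the same array, so a level of 0 is the 75th percentile. Of 18 macrophage markers 11 were detected on all 4 arrays, among them Cd68, Lyz2 and Csf1r, while Adgre1 was detected on none. Of the lung epithelial, granulocyte, lymphocyte, and fibroblast and endothelial markers, 1 of 11, 1 of 9, 3 of 10 and 4 of 12 were detected on all 4 arrays, and the surfactant genes Sftpc, Sftpb, Sftpa1 and Sftpd, the granulocyte gene S100a9 and the T cell gene Cd3e on none. Those detected on all arrays were Foxj1, Camp, the lymphocyte genes Lck, Pax5 and Nkg7, and the fibroblast and endothelial genes Dcn, Pecam1, Cdh5 and Vwf, and Cd3d was detected on 3 arrays. The summed signal of the detected markers, as a multiple of the 75th percentile, was 1621 to 1826 over the arrays for macrophage, 1.29 to 1.81 for epithelial, 2.06 to 3.27 for granulocyte, 5.92 to 7.94 for lymphocyte and 32.9 to 46.6 for fibroblast and endothelial markers. These sums add different numbers of genes and probes that differ in binding, so their sizes are not compared between cell types. Vwf, with 1 of its 2 probes detected on all arrays, read 947 to 1087 units. Dcn, Pecam1 and Cdh5 read at most 174 units, so Vwf made up most of the fibroblast and endothelial sum. The part of these cell type markers in the chemokine values was not tested. Because each array measured RNA of a whole culture, fewer cells making a chemokine and less of its RNA in each cell cannot be told apart.

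Messages of 5 of the 9 chemokines, Ccl2, Ccl3, Ccl4, Cxcl2 and Cxcl10, were detected on all 4 arrays. Ccl5 was detected on 3 arrays, and Ccl7, Ccl20 and Cxcl1 on none. Of the 16581 genes, 38.7% were detected on all 4 arrays and 51.4% on none. With 9 genes, the 5 on all arrays are a description, and no test was made of that share. Probes differ in how strongly they bind, so a level was compared only between arrays for the same gene and not between genes.

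**Figure D1:**
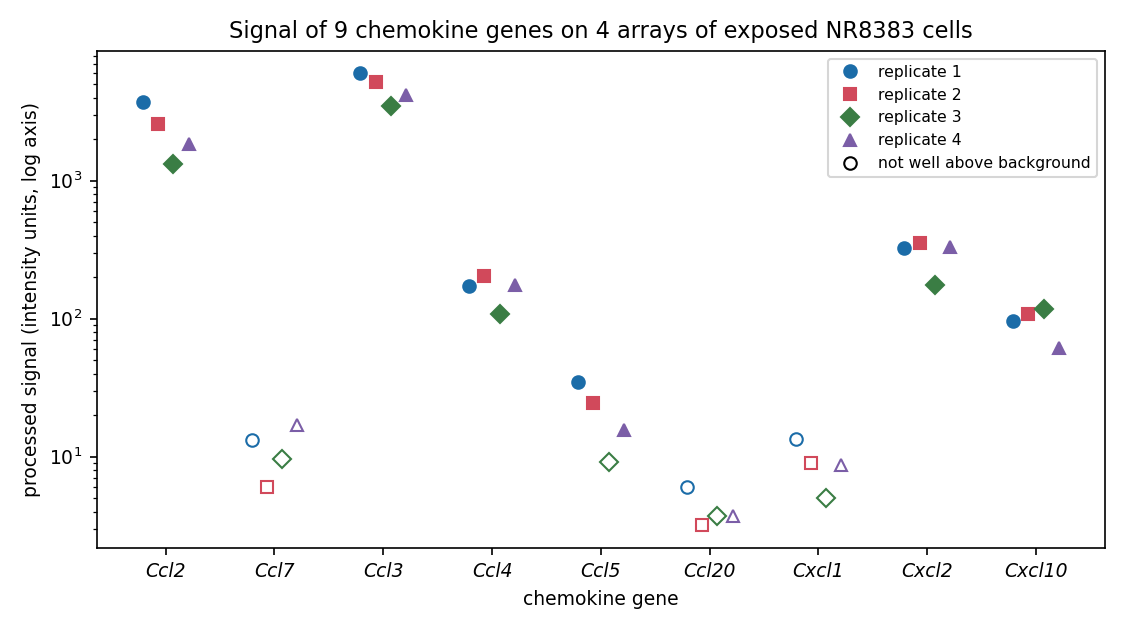
Processed signal of each chemokine on each of the 4 arrays (vertical axis, intensity units, log scale), with the spots of a probe averaged and filled symbols for arrays where the gene was detected. Ccl2 and Ccl3 lay at 1322 units or more on every array, Cxcl2, Ccl4 and Cxcl10 between 61.5 and 352 units, and Ccl7, Ccl20 and Cxcl1 had open symbols on all 4 arrays.

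Among the CC chemokines, Ccl2 encodes the monocyte attractant that binds CCR2. Its single probe was printed as 10 spots, and it read 3736, 2586, 1322 and 1849 intensity units on replicates 1 to 4. Relative to the 75th percentile its levels were 6.49, 6.31, 5.81 and 6.22, with a mean of 6.21 ± 0.28 on the log2 scale (SD, n = 4). Replicate 1 was highest and replicate 3 lowest, 1.60-fold apart after scaling. The 10 spots agreed closely within an array, with an SD of 0.05 to 0.07 on the log2 scale, so the spread of Ccl2 between replicates was larger than the spread between its spots. Of the 447 genes measured by 10 spots and detected on all arrays, Ccl2 had the 58th largest SD. Without replicate 3 its SD was 0.14.

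**Figure D2:**
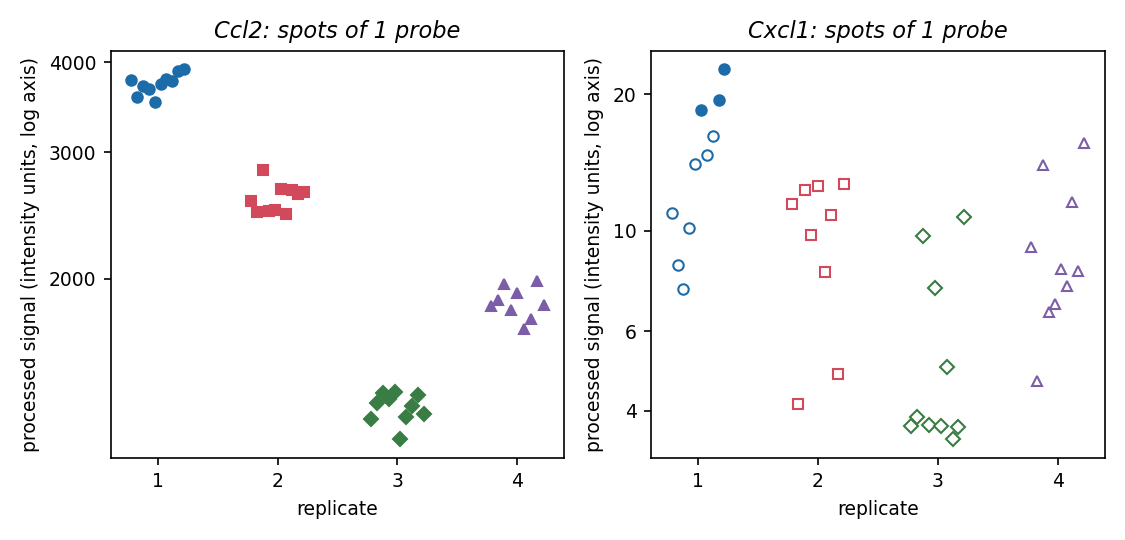
Processed signal of the Ccl2 probe (left) and the Cxcl1 probe (right) on replicates 1 to 4, in intensity units on log axes. Each symbol is a spot without an outlier flag, ordered from left to right by row on the array and filled where well above background. The Ccl2 spots of each array form a tight group (SD 0.05 to 0.07 on the log2 scale) apart from the other arrays. These signals are not scaled, so the gaps between arrays include differences in array brightness. Of the Cxcl1 spots shown, 3 of 10 were well above background on replicate 1 and none on the other arrays. The Cxcl1 spot left out on replicate 2 was also well above background.

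Ccl3 and Ccl4 encode the macrophage inflammatory proteins 1-alpha and 1-beta, which attract monocytes and T cells. Ccl3 read 5992, 5153, 3492 and 4191 units on replicates 1 to 4, from 2 spots each. Its levels were 7.17, 7.30, 7.22 and 7.40, a mean of 7.27 ± 0.10 (SD, n = 4), and the highest and lowest arrays were 1.18-fold apart. Ccl3 was thus the steadiest of the 5 chemokines: 9.82% of the 6418 genes detected on all arrays had an SD no larger than its own. Its 2 spots had an SD of 0.02 to 0.12 on the log2 scale within an array, above the SD between replicates on replicate 2 and below it on the other arrays. Without replicate 4 the SD of Ccl3 was 0.07.

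Ccl4, measured by 1 spot, read 174, 202, 108 and 175 units on replicates 1 to 4. Its levels were 2.06, 2.63, 2.20 and 2.82, a mean of 2.43 ± 0.36 (SD, n = 4). Replicates 2 and 4 were the higher pair and replicates 1 and 3 the lower, with a 1.69-fold range. In the RefSeq gene table Ccl3 and Ccl4 are direct neighbours on chromosome 10, and so are Ccl2 and Ccl7, while Ccl6 and Ccl9 lie between Ccl5 and Ccl3.

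Ccl5 encodes RANTES, an attractant of T cells and monocytes that binds CCR1. It read 35.1, 24.5, 9.12 and 15.6 units on replicates 1 to 4, from 2 spots each. Both spots were well above background on replicates 1 and 2, 1 of 2 on replicate 4 and neither on replicate 3. The lowest intensity of any probe well above background was 9.23, 11.7, 13.0 and 9.79 units on the same arrays, so Ccl5 lay below that value on replicate 3. That value is not a cutoff: on replicate 4 Ccl7, at 16.9 units, was not detected, while Ccl5 was through 1 of its 2 spots. No mean level is given for Ccl5.

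Ccl7, a monocyte attractant that shares CCR2 with Ccl2, and Ccl20, the ligand of CCR6, were detected on no array. Ccl7 read 13.3, 6.04, 9.55 and 16.9 units on replicates 1 to 4, and its 2 spots on replicate 2 were 2.89 and 12.6 units. The brighter of the 2 Ccl20 probes read 6.0, 3.19, 3.71 and 3.73 units. The Ccl2 probe was thus detected on every array and the probe of the adjacent gene Ccl7 on none.

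Among the CXC chemokines, Cxcl1 and Cxcl2 encode the neutrophil attractants known in rat as CINC-1 and CINC-3, ligands of CXCR2. They are adjacent on chromosome 14, and of the pair Cxcl2 was detected on all arrays and Cxcl1 on none. The promoters of both and of Cxcl10 are shown because the 3 genes share a promoter motif, while Cxcl2 and Cxcl10 were detected on all arrays and Cxcl1 on none. The windows are RefSeq sequences of build GRCr8 from 250 bases before to 50 bases after the annotated start, at chr14:15988816-15989115 on the plus strand for Cxcl10, chr14:17467206-17467505 on the minus strand for Cxcl2 and chr14:17479272-17479571 on the minus strand for Cxcl1. Capitals mark matches to the NF-kB consensus, to the AP-1 motif TGANTCA, to the interferon response motif GAAANNGAA and to TATAAA, each searched on both strands.
Cxcl10: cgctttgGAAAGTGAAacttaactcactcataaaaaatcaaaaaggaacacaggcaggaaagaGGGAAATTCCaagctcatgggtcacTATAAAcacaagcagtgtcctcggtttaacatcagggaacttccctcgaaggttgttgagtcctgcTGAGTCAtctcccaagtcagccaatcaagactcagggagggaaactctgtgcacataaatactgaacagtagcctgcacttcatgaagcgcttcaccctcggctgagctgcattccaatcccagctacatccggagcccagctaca
Cxcl2: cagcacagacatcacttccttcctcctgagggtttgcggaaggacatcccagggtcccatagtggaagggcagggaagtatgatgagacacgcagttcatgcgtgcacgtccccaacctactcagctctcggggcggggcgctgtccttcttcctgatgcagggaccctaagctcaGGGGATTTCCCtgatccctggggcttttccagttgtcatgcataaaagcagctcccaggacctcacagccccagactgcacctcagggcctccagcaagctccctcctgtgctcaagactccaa
Cxcl1: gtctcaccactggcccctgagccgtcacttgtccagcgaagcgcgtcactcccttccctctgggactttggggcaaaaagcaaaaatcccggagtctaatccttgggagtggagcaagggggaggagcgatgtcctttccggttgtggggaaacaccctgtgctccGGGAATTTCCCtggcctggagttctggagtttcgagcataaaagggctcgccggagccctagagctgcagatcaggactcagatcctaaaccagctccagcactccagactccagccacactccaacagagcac

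Cxcl2 held 2 overlapping NF-kB matches that began 74 and 73 bases before the start, and Cxcl1 held 2 overlapping ones that began 84 and 83 bases before it. Cxcl10 held 4 separate matches, with the interferon response motif at 243, NF-kB at 187, TATAAA at 162 and AP-1 at 96 bases before the start. The promoter table held 5 of the 9 chemokines, these 3 with Ccl7 and Ccl20. An NF-kB match was present in 4 of these 5 windows and in 4.18% of all 33469 windows in the table. The AP-1 motif was in 2 of the 5 against 7.33% of all windows, GAAANNGAA in 1 of 5 against 9.71%, and TATAAA in 2 of 5 against 14.2%. Ccl20 had an NF-kB match at 89 bases, while Ccl7 had AP-1 at 73 and TATAAA at 34 bases and no NF-kB match in this window. The NF-kB consensus was thus found both in Cxcl2 and Cxcl10, detected on all arrays, and in Cxcl1 and Ccl20, detected on none. A match is a string of letters and not evidence of binding.

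**Figure D3:**
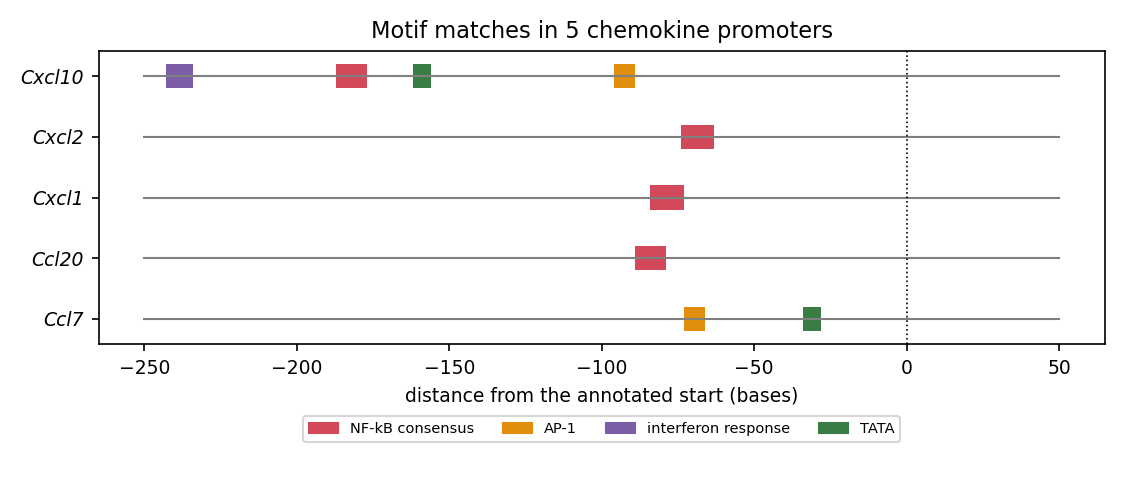
Motif matches in the 5 RefSeq promoter windows that the table held, drawn by distance from the annotated start in bases (horizontal axis, from 250 before to 50 after), with 1 row per gene. Each match is a bar over the matched bases, with 1 colour per motif. NF-kB matches lie 73 to 89 bases before the start in Cxcl1, Cxcl2 and Ccl20 and 187 bases before it in Cxcl10, and Ccl7 has none.

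Cxcl2 read 326, 352, 175 and 332 units on replicates 1 to 4, from 1 spot. Its levels were 2.97, 3.43, 2.90 and 3.75, a mean of 3.26 ± 0.40 (SD, n = 4), with replicate 4 highest and replicate 3 lowest, 1.80-fold apart. Cxcl1 was printed as 10 spots, whose average was 13.4, 8.98, 5.00 and 8.71 units on replicates 1 to 4. On replicate 1 its spots spanned 7.44 to 22.7 units, and 3 of the 10 were well above background. On replicates 2 to 4 none of the kept spots were. The spot left out on replicate 2 for its outlier flag was well above background, at 15.1 units. By the software's weaker flag, a signal positive and significant against background, all 10 Cxcl1 spots passed on replicates 1 and 4, all 9 kept on replicate 2, and 4 of 10 on replicate 3. Cxcl1 thus passed the weaker flag on every kept spot of 3 arrays without being detected on any.

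Cxcl10 encodes an interferon-induced attractant of activated T cells that binds CXCR3. It read 96.3, 109, 117 and 61.5 units on replicates 1 to 4, from 1 spot. Its levels were 1.21, 1.73, 2.32 and 1.31, a mean of 1.64 ± 0.50 (SD, n = 4), with replicate 3 highest and replicate 1 lowest, 2.16-fold apart. With the main scaling and all replicates this was the widest spread of the 5 chemokines, and 94.5% of the 6418 genes had an SD no larger. Without replicate 3 the SD of Cxcl10 was 0.28, below that of Ccl4 at 0.40 and of Cxcl2 at 0.39. Without scaling it was 0.42, below that of Ccl2 at 0.64 and of Cxcl2 at 0.47. Normexp, run with an offset of 50 units and quantile normalization, gave 0.33 for both Cxcl10 and Ccl2. Such an offset narrows the spread on the log2 scale more for weak signals, such as that of Cxcl10. The signal of its spot was 2.90 to 5.29 times the local background, against 5.60 to 9.41 times for Ccl4 and 37.3 to 147 times for Ccl2, and the part of this in its spread was not tested.

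With the main scaling, on replicate 2 all 5 chemokines were above their own mean and on replicate 4 all but Cxcl10 were, while on replicate 1 only Ccl2 and on replicate 3 only Cxcl10 was. Of the 6418 genes, 2633, 3064, 3449 and 3860 were above their own mean on replicates 1 to 4. Ccl4 and Cxcl2 followed each other most closely, with deviations from their means that differed by a root mean square of 0.09 on the log2 scale and lay on the same side of the mean on 4 of 4 arrays. Their ratio within an array therefore varied by 1.17-fold, although each varied by 1.69-fold or more. Ccl2 and Cxcl10 were the least alike of the 10 pairs, at a root mean square of 0.6655, with Cxcl2 and Cxcl10 almost level at 0.664. The ratio of Ccl2 to Cxcl10, which a constant added to all log2 values of an array leaves as it is, varied by 3.44-fold, with replicate 1 highest and replicate 3 lowest. The ratio of Cxcl2 to Cxcl10 varied more, by 3.61-fold. These likenesses are a description of 4 arrays and carry no test.

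The scaling bears on which array was highest. When arrays were left unscaled, or centred on the 7 spike-in probes instead of the 75th percentile, the median of the detected genes itself differed between arrays by 0.79 and 1.19 on the log2 scale, against 0.10 with the main scaling. Ccl4 and Cxcl2 were then highest on replicate 2, not 4. Ccl3, highest on replicate 4 with the main scaling, was highest on replicate 1 without scaling and on replicate 2 with spike-in centring. Without scaling all 5 chemokines were above their mean on replicate 1, and Ccl2, 0.02 above its mean on replicate 4 with the main scaling, had a deviation of -0.25 there. Its deviation on replicate 4 was also negative with the percentile over detected probes, at -0.06, and with quantile normalization, at -0.11. On replicate 3, Cxcl10 was above its mean and the other 4 chemokines were below theirs under every scaling tried. Ccl2 remained highest on replicate 1 under all scalings tried, and Cxcl10 highest on replicate 3 under all but spike-in centring, where replicate 2 was. The SD of Ccl2 was 0.64 without scaling and 0.75 with spike-in centring, and that of Ccl3 was 0.34 and 0.52.

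**Figure D4:**
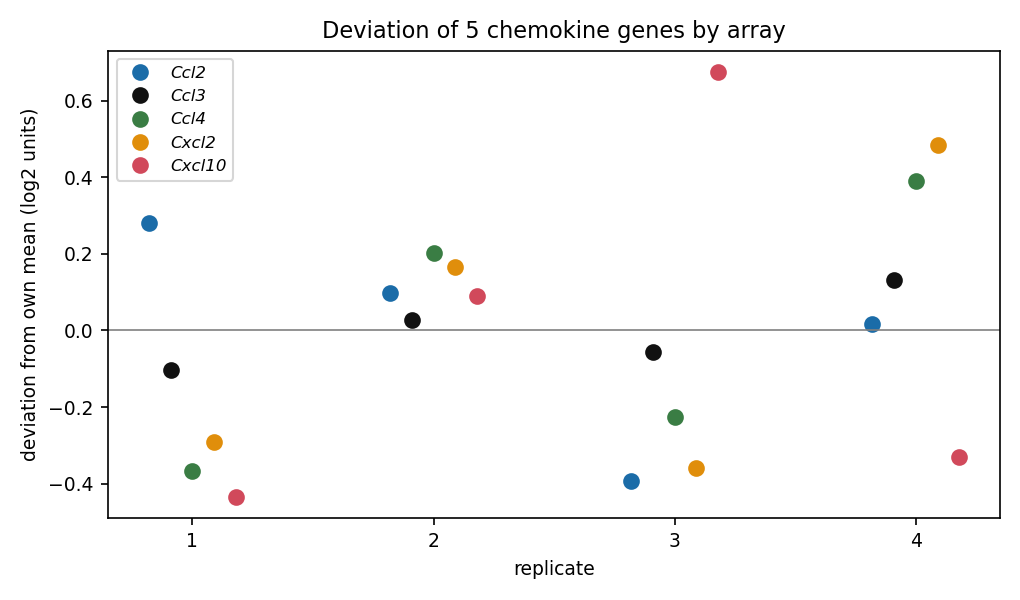
Deviation of each of the 5 chemokines detected on all arrays from its own 4-array mean (vertical axis, log2 units after scaling to the 75th percentile), with replicates 1 to 4 on the horizontal axis and genes offset slightly sideways. Ccl4 and Cxcl2 run side by side, Ccl3 stays within 0.13 of its mean, and Cxcl10 is 0.67 above its mean on replicate 3, where Ccl2 is 0.39 below its own.

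The median SD of the 5 chemokines was 0.36, and their range was 0.10 to 0.50. Over the 6418 genes the median was 0.23, with a 10th percentile of 0.10 and a 90th percentile of 0.43. Genes printed as 10 spots had a median SD of 0.17, so each chemokine was also placed among genes with the same number of spots and a mean level within 1 of its own on the log2 scale. In that setting 94.8% of 154 genes had an SD no larger than that of Ccl2, 80.6% of 2157 genes than that of Ccl4, 89.8% of 1799 genes than that of Cxcl2 and 93.2% of 2254 genes than that of Cxcl10. For Ccl3 the share was 2.94% of 34 genes.

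Of 25 other chemokine ligands with a probe, 4 passed on all 4 arrays, 2 passed on some and 19 were detected on none. These 4 were Ccl6, with a level of 6.65 ± 0.27, and Ccl9, with 6.28 ± 0.38, both known in mouse as ligands of CCR1, Ccl22, a ligand of CCR4 with 4.65 ± 0.52, and Cxcl16, a membrane-bound ligand of CXCR6 with 3.00 ± 0.18 (SD, n = 4 each). Only 1 of the 3 Ccl22 probes was detected on all arrays. Cxcl9 and Cxcl11, which share the receptor of Cxcl10, were detected on no array, and were picked for mention after their values were seen.

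Of 17 chemokine receptors with a probe, 5 were detected on all 4 arrays, among them Ccr1, Ccr9, Cxcr1 and Cx3cr1, and 12 on none. Ccr1, which binds Ccl3 and Ccl5, had levels of 1.39, 1.96, 1.26 and 2.27 on replicates 1 to 4, a mean of 1.72 ± 0.48. With the main scaling Ccr1 was higher on replicates 2 and 4 than on replicates 1 and 3, as Ccl3, Ccl4, Cxcl2 and Cxcr1 were, among other genes. Without scaling Ccr1, Ccl4 and Cxcl2 kept this order, while Ccl3 and Cxcr1 were highest on replicate 1. With spike-in centring Ccl3, Ccl4 and Cxcl2 were lower on replicate 4 than on replicate 1. Ccr2, Ccr6, Cxcr2 and Cxcr3, the receptors of Ccl2 and Ccl7, of Ccl20, of Cxcl1 and Cxcl2, and of Cxcl10, were detected on no array. Among the others that passed were Ccr9, the receptor of CCL25, at 0.04 ± 0.35 on 1 of its 2 probes, Cxcr1 at 2.25 ± 0.23 and Cx3cr1, the fractalkine receptor, at 2.36 ± 0.41 (SD, n = 4 each). None of the 3 atypical chemokine receptors with a probe was detected on all arrays, and of 14 genes of chemokine receptor signalling 10 were.

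**Figure D5:**
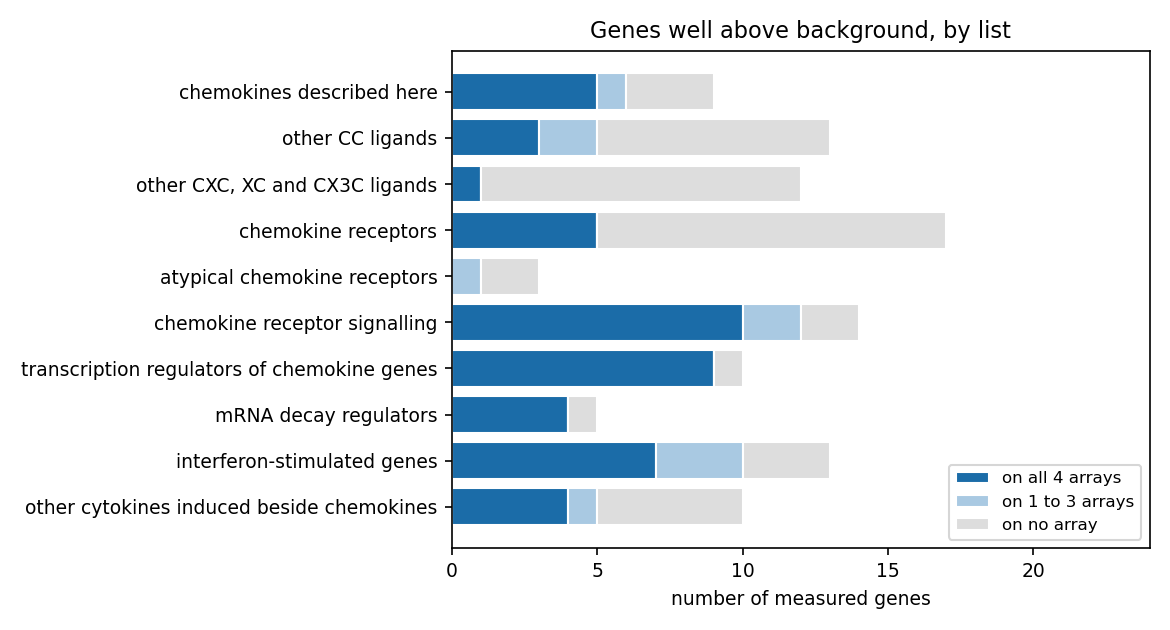
Number of measured genes of each list (horizontal axis) that were detected on all 4 arrays, on 1 to 3 arrays or on none. The chemokines described here have 5 of 9 genes on all 4 arrays, the other CC ligands 3 of 13, the other CXC, XC and CX3C ligands 1 of 12, the receptors 5 of 17 and the transcription regulators 9 of 10.

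Of 10 transcription regulators of chemokine genes, 9 were detected on all 4 arrays. The NF-kB subunit genes Nfkb1, Nfkb2 and Rela had levels of 1.81 ± 0.20, 3.58 ± 0.26 and 3.25 ± 0.64, and Nfkbia, which encodes an NF-kB inhibitor that NF-kB itself induces, had 3.90 ± 0.33 (SD, n = 4 each). The AP-1 subunit gene Jun was at 2.66 ± 0.41, Cebpb at 7.51 ± 0.30, and the interferon regulatory factor genes Irf1 and Irf3 at 3.31 ± 0.31 and 5.17 ± 0.16. With the main scaling, 8 of the 9 were above their own mean on replicate 3, with a median deviation of 0.35. Of the 5 chemokines, 4 were below theirs there, all but Cxcl10. Of all 6418 genes, 3449 were above their mean on that array. Deviations of the regulators under other scalings are not given. Of 5 regulators of mRNA decay 4 were detected on all arrays: Zfp36l1 at 0.86 ± 0.15, Zfp36l2 at 7.50 ± 0.85, Elavl1 at 5.13 ± 0.31 and Zc3h12a, which encodes Regnase-1, at 1.90 ± 0.47.

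Of 13 interferon-stimulated genes, a group that Cxcl10 is also counted among, 7 were detected on all 4 arrays. They were Isg15 at 1.17 ± 0.20, Mx2 at 5.10 ± 0.17, Oas1a at 2.58 ± 0.27, Irf7 at 1.92 ± 0.52, Usp18 at 0.92 ± 0.21, Gbp2 at 2.99 ± 0.17 and Ifi44 at 1.58 ± 0.18 (SD, n = 4 each). On replicate 3, where Cxcl10 was highest with the main scaling, 3 of the 7 were above their own mean, Irf7 by 0.66. The median deviation of the 7 there was -0.07, also with the main scaling. Of 10 other cytokines often induced beside chemokines, 4 were detected on all 4 arrays: Tnf at 3.67 ± 0.25, Il1a at 4.02 ± 0.40, Il1b at 4.15 ± 0.12 and Csf3 at 0.33 ± 0.37 (SD, n = 4 each). For Nfkb1, Zfp36l1, Zc3h12a and Tnf, 1 of 2 probes was detected on all arrays, and the values are those of that probe.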

How the data were processed

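Total RNA of 4 cultures was labelled with Cy3 and hybridised to 4 arrays of 1 slide, per the labels and file headers. The deposited values are intensities: the authors' processed signal per spot, with background flags of 0 or 1. The submitters' processing notes name Agilent Feature Extraction 11.0.1.1. Control spots and spots with an outlier flag were left out, spots of a probe were averaged on the log2 scale, and log2 intensity minus the array's 75th percentile was taken as the level. Of 45598 probes, 21109 had 1 symbol through their accession and 24489 none. A gene with several probes is described by the probe with the highest mean level. Named are the 9 chemokines, receptors of theirs, other ligands and receptors detected on all arrays, up to 8 such genes of each regulator list and up to 4 of each marker list in list order, and 1 gene is not reported here. The members and lists were chosen with earlier results of these data known. With 1 group there is no test. Each culture had 1 array, so SDs hold the spread between 4 cultures together with that of labelling, hybridisation and spots. Tools were Python 3.11.15, numpy 2.4.6, pandas 2.3.3, limma 3.58.1 (normexp) and R 4.3.3. The code was tested on simulated data. Alternatives covered flags, scaling, background correction, probes and replicates.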

Additional observations from a re-analysis of the deposited data

Results flagged for a closer look

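Ccl22 on replicate 3 stood apart from the other replicates: its levels were 4.28, 4.45, 5.42 and 4.47 on replicates 1 to 4, and the gap from replicate 3 to the nearest of the others was 0.831 of the whole range by Dixon's ratio. Of 37 levels examined this way, 1 exceeded the limit, where chance flags about 1 group in 20, and none of the 5 chemokines described above did.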

How the results depend on the processing

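The number of chemokines well above background on all arrays was 5 under the main rule, 7 with the weaker flag (adding Ccl5 and Ccl7), 6 when 3 of 4 arrays sufficed, and 5 to 6 when a replicate was left out. The share of all genes that passed was computed for the main rule only, at 38.7%. The counts under the other rules therefore have no such share beside them and are not read as a result about the chemokines. Of 13 interferon-stimulated genes, 7 passed under the main rule and 11 with the weaker flag. Of 17 receptors, 5 passed under the main rule and 3 when every probe of the gene was required. The other counts of the chemokines, other ligands, receptors, regulators and interferon-stimulated genes stayed within 1.5 times their main value under the alternatives run. The levels of all 5 chemokines moved by more than 1 SD with spike-in centring, with no scaling and with the percentile of detected probes, which set another zero point, and under normexp, which moved each gene by a different amount. With normexp the SD of Cxcl10 was 0.33 and that of Ccl3 0.04. Normexp was run on median signals, since the columns used here hold no mean spot signal. It used an offset of 50 units and was followed by quantile normalization. No paired analysis was possible because there is 1 group, and the slide could not be tested as a block because there is 1 slide. Signal over background limits the account of Ccl5, Ccl7, Ccl20 and Cxcl1, for which no mean level is given.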
